A study of Mus musculus with 12 samples.

Results

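The results below set podocytes that had been exposed to fluid flow shear stress, at whatever time they were harvested, against podocytes that had not. The members are the 9 sheared of the 12 arrays in the series, taken as 3 harvests of 3 arrays each, and they were chosen by their harvest label and by no measured value. The 3 remaining arrays are the unsheared Control. Attention is on genes whose difference from Control had 1 direction at all 3 harvests.

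The cells were podocytes of a conditionally immortalized mouse line, per the labels from the Immortomouse, with a thermosensitive tsA58 T-antigen. Every group shared this background: cells were propagated at 33 °C with γ-interferon, moved to 37 °C without it to differentiate, and used on day 14. Flow lasted 2 h at 75 ml per minute, which gave a shear of 2 dynes/cm2. Cells labelled End were harvested when shear stopped, Post-2hr cells after 2 h of recovery in their original medium, and Post-24hr cells after 24 h of it. Control cells, also called pre-FFSS in the labels, stood in the same hood and incubator without flow. No clock time of harvest is recorded for them, so shear, handling and time since the last medium change cannot be told apart in any difference from Control. The model is 1 line grown on glass, not a kidney, and nothing in the labels says whether the replicates of a group were separate cultures. The p-values below therefore measure spread between samples that may differ only technically. In RNA from whole cultures, fewer cells of a type and less RNA per cell cannot be told apart.

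Each array of the Affymetrix Mouse Exon 1.0 ST type gave 23332 rows, 1 per gene or transcript cluster, as log2 expression values between 1.63 and 14.23. Array medians lay between 6.928 and 7.115. The replicate 1 array of every group stood apart: principal component 1, with 42.4% of the variance, placed the 4 replicate 1 arrays at −53.2 to −26.7 and the others at 3.00 to 34.5. The labels give no batch or date, and replicate 1 was set apart from replicates 2 and 3 by a fixed term in the fits reported here, unless another setting is named. For arrays, their number limits the precision. The label of the cells was checked against podocyte genes: Wt1, a podocyte transcription factor, had log2 levels of 7.22 to 7.54 in sheared cells and 7.19 to 7.46 in Control cells, and Nphs1, which encodes nephrin of the slit diaphragm, 6.55 to 6.89 in sheared cells and 6.55 to 6.76 in Control cells. All Nphs1 levels lay under the lowest array median. The median over 17 podocyte markers was 8.09 to 9.57 in sheared arrays and 8.27 to 9.6 in Control arrays. Over 9 proximal tubule markers it was 6.46 to 6.77 and 6.38 to 6.69. Endothelial, leukocyte and mesangial marker lists had lower medians still. No detection calls were used here, so these levels alone do not show how strongly the line expressed the genes.

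Podocytes are epithelial cells that wrap the kidney's filtering capillaries with interlocking foot processes, and filtrate passing between and beneath them exerts shear on their surface. Mechanical stimulation of many cell types activates mitogen-activated protein kinases (MAPK) and calcium signalling, which switch on immediate early genes without new protein synthesis. Products of that first wave include transcription factors of the AP-1, EGR and NR4A families, phosphatases and mRNA decay factors that shut the signal down again, and secreted cytokines and growth factors. In podocytes, shear is also known to act through cyclooxygenase-2, prostaglandin E2 and its receptors.

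Across all rows, the comparison of sheared with Control cells called 1 row at an adjusted p under 0.05, or 0.00429% of those tested, and 0 lower rows (0%). The called row was Plaur. Without adjustment, 1349 rows had p under 0.05 (5.78%), 680 of them higher (2.91%) and 669 lower (2.87%) in sheared cells, where an even spread of p-values would give 1167. Having the same sign at all 3 harvests was common, at 39.7% of rows: 4813 rows were higher at each harvest (20.6%) and 4455 lower (19.1%). All 3 harvest differences are taken from the same 3 Control arrays, so the 3 signs are not independent of each other. A stricter description asks that the sheared arrays do not overlap the Control arrays, both within replicate 1 and within replicates 2 and 3. Of all rows, 1.53% met it, 215 upwards (0.921%) and 143 downwards (0.613%). Some rows would meet it with no effect of shear, and how many was not worked out here, so meeting it is a description only.

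Plaur encodes the urokinase receptor, a membrane protein that gathers urokinase at the cell surface and signals through integrins. Its log2 level in sheared cells was 8.78, 9.08 and 8.77 at End, 9.93, 9.89 and 9.88 at Post-2hr, and 9.18, 9.16 and 9.13 at Post-24hr, against 8.50, 8.25 and 8.34 in Control cells. Every sheared array was above every Control array, and the replicates of Post-2hr and of Post-24hr lay close together. Plaur rose by 0.95 ± 0.08 (log2, SE), or 1.93-fold, with an adjusted p of 0.0175 (limma, Benjamini-Hochberg over 23332 rows). Means were 9.31 ± 0.47 in sheared cells and 8.36 ± 0.13 in Control cells (SD, n = 9 and 3). By harvest, the difference from Control was 0.52 at End, 1.54 at Post-2hr and 0.80 at Post-24hr. Within replicate 1 it was 0.80, and within replicates 2 and 3, which share no array with replicate 1, it was 1.03. The size of the difference was steadier than the call: leaving out 1 of the 12 arrays gave 0.89 to 1.03 but kept the adjusted p under 0.05 in 6 of 12 fits. The call was lost without Control replicate 1 (adjusted p = 0.0599), Control replicate 2 (0.0636), Control replicate 3 (0.133), Post-24hr replicate 2 (0.0853), Post-2hr replicate 1 (0.0947) and Post-2hr replicate 3 (0.0890). It was also lost with a replicate block of 3 levels (0.0579), and leaving Post-2hr out of the average gave a difference of 0.66 (0.242).

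Whether the 3 sheared harvests differed among themselves is a separate question. A moderated F test of the differences between harvest means, with the spread estimated from all 12 arrays, Control arrays included, called 20 rows (0.0857%), of which 19 differed from Control in opposite directions at different harvests. Plaur was the 1 exception: it passed the F test (adjusted p = 0.0339) while staying above Control at each harvest. These calls depended on which arrays entered the fit. With the 9 sheared arrays alone in the fit the F test called 0 rows (3209 at an unadjusted p under 0.05; Plaur at an adjusted p of 0.106), and with 1 of the 12 arrays left out it called 0 to 17, with 0 in 6 of the 12 fits. Plaur passed in 2 of these fits, those without Control replicate 1 (0.0449) and without End replicate 2 (0.0230). Post-2hr minus End was 1.02 ± 0.10 (log2, SE; adjusted p = 0.0179), and Post-24hr minus Post-2hr was −0.74 ± 0.10 (adjusted p = 0.0913). Among the other rows called were Fbxo32, a ubiquitin ligase component of muscle wasting, and Bmf, a pro-apoptotic BCL2 family protein. Their differences from Control were 0.91 and 1.04 at End but −0.59 and −0.58 at Post-24hr, which gave averages over the harvests of 0.04 and −0.06.

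The letters upstream of Plaur are shown because its partners in the ranking below include subunits of AP-1, the dimeric FOS and JUN factor. The 250 bases before the annotated start were taken from RefSeq (GRCm38.p6, chr7:24462233-24462482, plus strand), and capitals mark the letters TGANTCA, the AP-1 motif, here 69 bases before the start. The motif occurred on either strand in 6.75% of the 32851 windows of this length in the table.
Plaur: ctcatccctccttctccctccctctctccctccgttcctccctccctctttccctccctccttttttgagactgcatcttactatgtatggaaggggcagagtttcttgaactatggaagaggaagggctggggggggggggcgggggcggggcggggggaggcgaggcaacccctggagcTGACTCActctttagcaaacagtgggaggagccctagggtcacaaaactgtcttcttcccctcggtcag
A match is a description of these letters and does not show binding. These coordinates belong to the RefSeq table alone, since the sources used here give no genome build for the expression values.

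Of the 7 other genes for plasminogen activation and its control that were measured, none passed. Plau, which encodes urokinase itself, differed by 0.40 (adjusted p = 0.55) with 0.37, 0.53 and 0.31 at End, Post-2hr and Post-24hr, and its arrays did not overlap within either set. Plat, the tissue-type activator, differed by 0.39, with 0.49 and 0.66 at the earlier harvests and 0.03 at Post-24hr. The list of 8 had a median difference of 0.07, against 0.0036 over all 14860 genes. Of these 8, 4 were higher and 1 was lower at all 3 harvests (50% and 12.5%, against 21.3% and 15.5% of all genes).

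A further 13 genes fell short over all rows and passed when the test was restricted to fewer rows. Each restriction also estimated the prior variance from those rows alone, so the number of rows adjusted for was not the only change. Restricting the test to the 14996 rows with 1 gene symbol called 13 (0.0867%). Restricting it to the 11666 rows above the median level called 13 (0.111%), with 12 genes in both. These 12 were Plaur and, all higher in sheared cells, Klf5, Zfp36, Fosl1, Ier3, Junb, Bhlhe40, Runx1, Dusp6, Ccl7, Plk2 and Mob3a. Nr4a1 passed among the bright rows (adjusted p = 0.0494) and missed among the rows with 1 symbol (0.0507). Cox7b, lower in sheared cells, passed among the rows with 1 symbol (0.0197) and was too dim for the other set. Over all rows their adjusted p-values ran from 0.108 for Cox7b to 0.210 for Nr4a1, so none is written of here as having risen or fallen. Just outside the threshold in the full table stood Cox7b, Klf5 and Zfp36.

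**Figure D1:**
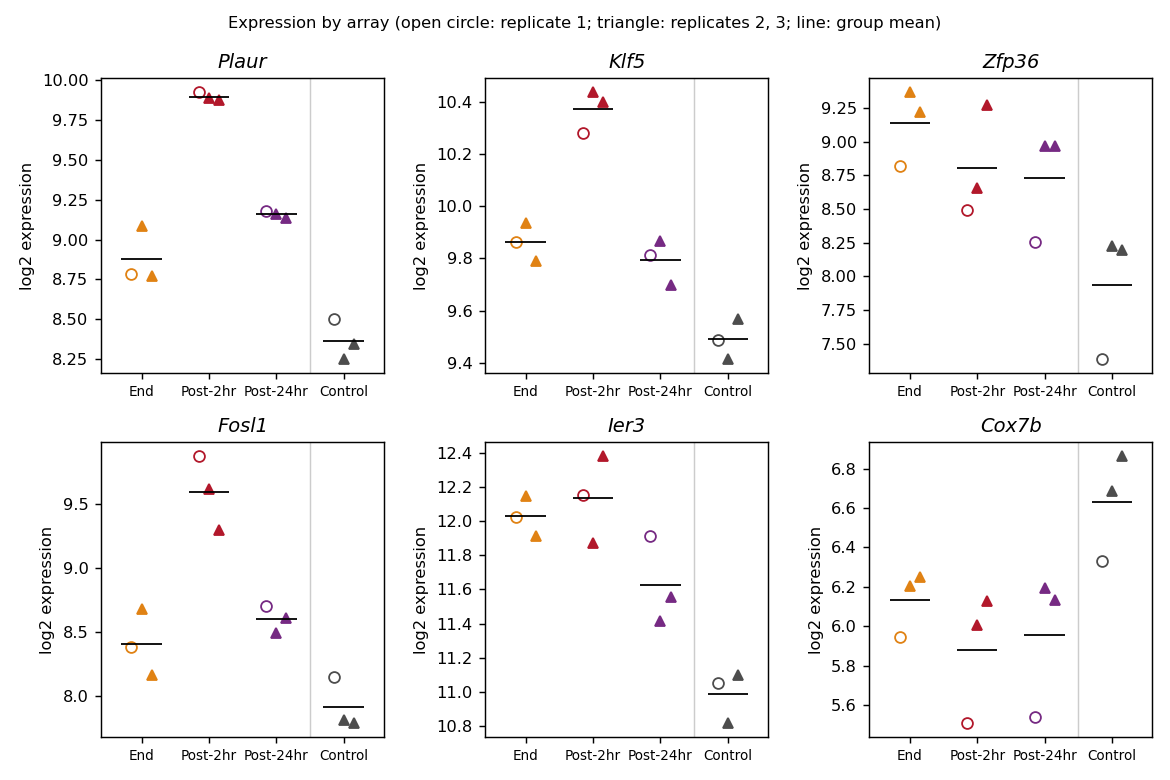
Log2 expression (y axis) of 6 genes on each of the 12 arrays, by group (x axis: End, Post-2hr, Post-24hr and Control). Open circles are replicate 1, triangles are replicates 2 and 3, and horizontal lines are group means. Plaur, Klf5, Zfp36, Fosl1 and Ier3 have all 9 sheared arrays above all 3 Control arrays, and Cox7b has all 9 below.

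Several of these genes encode transcription factors. Fosl1 (FRA-1), an AP-1 subunit, had log2 levels of 8.38, 8.69 and 8.16 at End, 9.88, 9.62 and 9.29 at Post-2hr, and 8.71, 8.50 and 8.61 at Post-24hr, against 8.15, 7.81 and 7.79 in Control cells. All sheared arrays were above all Control arrays, by a narrow gap at End replicate 3. The average difference was 0.95 ± 0.12 (log2, SE; adjusted p = 0.13). Junb, another AP-1 subunit, was at 11.52, 11.73 and 11.33 at End, 10.67, 10.51 and 11.17 at Post-2hr, and 10.34, 10.70 and 10.75 at Post-24hr, against 9.44, 10.20 and 10.12 in Control cells. Its sheared arrays too lay above every Control array, with the highest values at End, the harvest where Fosl1 had its lowest sheared mean. Junb differed by 1.05 ± 0.16 (adjusted p = 0.18).

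Klf5, a Krüppel-like zinc finger factor, was at 9.86, 9.94 and 9.79 at End, 10.28, 10.44 and 10.40 at Post-2hr, and 9.81, 9.87 and 9.70 at Post-24hr, against 9.49, 9.41 and 9.57 in Control cells. The 9 sheared values were above the 3 Control values, and the Post-2hr arrays stood above all others. Its difference was 0.52 ± 0.06 (log2, SE; adjusted p = 0.13), with 0.50 within replicate 1 and 0.53 within replicates 2 and 3. Runx1, a factor of blood and mesenchymal development, had 10.32, 10.17 and 9.69 at End, 11.14, 10.37 and 10.55 at Post-2hr, and 10.33, 9.82 and 9.57 at Post-24hr, against 9.94, 9.31 and 9.32 in Control cells. Within each set the arrays did not overlap, while over all 12 Control replicate 1 exceeded 3 of the sheared arrays. Bhlhe40, a transcriptional repressor that acts in the circadian clock, differed by 1.04 ± 0.16 (adjusted p = 0.20), with 1.37 at End, 1.33 at Post-2hr and 0.42 at Post-24hr.

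Nr4a1, the orphan nuclear receptor NUR77, had the largest average difference of the 14 genes called in either restricted set, 1.69 ± 0.27 (log2, SE; adjusted p = 0.21). Its levels were 9.12, 10.95 and 10.00 at End, 10.68, 11.09 and 11.16 at Post-2hr, and 8.69, 10.55 and 10.34 at Post-24hr, against 7.46, 9.55 and 8.77 in Control cells. In each group replicate 1 was the lowest, and within either set no sheared array reached down to Control. The differences were 2.04 within replicate 1 and 1.52 within replicates 2 and 3. Its upstream window is shown because NR4A genes are textbook targets of cyclic AMP through CREB, and cyclic AMP is downstream of prostaglandin E2 receptors. The 250 bases before the start come from RefSeq (GRCm38.p6, chr15:101266596-101266845, plus strand), with the letters TGACG, the core of a cyclic AMP response element, in capitals where they occur on either strand (CGTCA on the strand printed).
Nr4a1: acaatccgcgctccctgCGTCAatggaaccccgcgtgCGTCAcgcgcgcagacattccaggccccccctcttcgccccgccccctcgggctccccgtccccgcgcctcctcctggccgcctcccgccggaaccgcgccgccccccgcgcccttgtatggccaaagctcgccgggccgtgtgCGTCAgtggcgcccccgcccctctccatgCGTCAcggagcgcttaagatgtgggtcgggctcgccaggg
The core occurred 4 times, at 233, 213, 69 and 40 bases before the start. At least 1 copy was in 17.8% of all windows of this length. Of 12 cyclic AMP and CREB targets measured, 1 was higher and 2 were lower at all 3 harvests (8.33% and 16.7%, against 21.3% and 15.5% of all genes). Arrays did not overlap within either set, on the higher side, for 1 of the 12 (8.33%, against 1.12%). The median difference of that list was 0.03, with −0.05 within replicates 2 and 3, and none passed over all rows.

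The EGR factors, zinc finger proteins induced within minutes in many cells, were higher at every harvest with wide spread. Egr2 was at 8.56, 10.09 and 9.34 at End, 7.88, 8.30 and 9.38 at Post-2hr, and 6.62, 8.84 and 8.73 at Post-24hr, against 6.50, 7.43 and 7.32 in Control cells. Post-24hr replicate 1 was just above its own Control array and below the other Control arrays. Egr2 differed by 1.55 ± 0.28 (log2, SE; adjusted p = 0.34), Egr3 by 1.37 ± 0.26 (0.40) and Egr1 by 0.99 ± 0.20 (0.42). For Egr1 the difference was 1.66 within replicate 1, where the Control array was at 7.79, and 0.66 within replicates 2 and 3, whose Control arrays were at 9.23 and 9.29. The test of that difference between the sets gave an unadjusted p of 0.0082 (limma), and it called 0 of 23332 rows after adjustment (0%; lowest adjusted p = 0.497, with 809 rows under an unadjusted 0.05).

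Of 24 immediate early transcription factor genes measured, 24 had a higher mean in sheared cells, against 7699 of all 14860 genes. At all 3 harvests 17 were higher and 0 lower (70.8% and 0%, against 21.3% and 15.5% of all genes), and for 10 the arrays did not overlap within either set (41.7%, against 1.12%). None passed over all rows. The median difference of the list was 0.45, with 0.50 at End, 0.77 at Post-2hr and 0.43 at Post-24hr. The gene lists were chosen with earlier results of these data known, so these counts and medians are descriptions without a test. Fos, the founding AP-1 subunit, differed by 1.48 on average, with 2.37 at End, 0.99 at Post-2hr and 1.07 at Post-24hr. Its groups overlapped within replicates 2 and 3, since Post-2hr replicate 2 was just below Control replicate 3, at 8.03. At the low end of the list Jund differed by 0.01 and Klf2, a factor known from flow in endothelium, by 0.08.

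Genes that feed back on these signals were also higher on average. Zfp36 encodes tristetraprolin, which speeds the decay of cytokine mRNAs. It was at 8.82, 9.37 and 9.22 at End, 8.50, 8.65 and 9.27 at Post-2hr, and 8.26, 8.97 and 8.97 at Post-24hr, against 7.38, 8.23 and 8.20 in Control cells. All 9 sheared arrays were above all 3 Control arrays, but only by a small step at Post-24hr replicate 1. The difference was 0.96 ± 0.12 (log2, SE; adjusted p = 0.13), 1.14 within replicate 1 and 0.86 within replicates 2 and 3. Ier3, an early response protein that prolongs ERK signalling and affects cell survival, was at 12.03, 12.15 and 11.92 at End, 12.16, 11.87 and 12.38 at Post-2hr, and 11.91, 11.41 and 11.55 at Post-24hr, against 11.05, 10.81 and 11.10 in Control cells. The sheared and Control arrays were clearly apart, and Ier3 differed by 0.94 ± 0.13 (adjusted p = 0.13).

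Dusp6, the cytoplasmic phosphatase of ERK, was at 8.45, 10.54 and 9.82 at End, 9.07, 10.89 and 11.29 at Post-2hr, and 8.67, 10.57 and 10.31 at Post-24hr, against 7.61, 9.62 and 9.60 in Control cells. The replicate 1 arrays were lower in every group, so that groups overlapped over all arrays and not within either set. It differed by 1.01 ± 0.15 (log2, SE; adjusted p = 0.16), 1.12 within replicate 1 and 0.96 within replicates 2 and 3. Its nuclear relative Dusp4 differed by 0.78 ± 0.16 and Spry4, a Sprouty inhibitor of receptor tyrosine kinase signalling, by 0.72 ± 0.13. Of 18 MAPK feedback regulators measured, 13 were higher and 0 lower at all 3 harvests (72.2% and 0%, against 21.3% and 15.5% of all genes), and 5 did not overlap within either set (27.8%, against 1.12%). Their median difference was 0.31, with 0.17 at End, 0.44 at Post-2hr and 0.39 at Post-24hr. None passed over all rows, and Spry1, another Sprouty gene, had −0.54 at End and 0.51 at Post-24hr.

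Polo-like kinases 2 and 3 are stress-induced kinases. Plk2 was at 10.69, 10.73 and 10.89 at End, 11.28, 11.16 and 11.40 at Post-2hr, and 11.13, 11.29 and 11.29 at Post-24hr, against 10.65, 10.57 and 10.64 in Control cells. End lay just above Control and the recovery harvests well above it, with an average difference of 0.48 ± 0.07 (log2, SE; adjusted p = 0.16). Mob3a, of the MOB family of kinase adaptors, had nearly the same difference at each harvest, 0.51 at End, 0.50 at Post-2hr and 0.44 at Post-24hr (0.48 ± 0.07, adjusted p = 0.16). Its levels were 8.74, 9.36 and 9.38 at End, 8.79, 9.38 and 9.29 at Post-2hr, and 8.52, 9.45 and 9.29 at Post-24hr, against 8.14, 8.96 and 8.86 in Control cells. Replicate 1 was lowest in every group, and the arrays did not overlap within either set.

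Among secreted signals, Ccl7, a monocyte chemoattractant, was at 8.07, 8.83 and 8.67 at End, 9.56, 9.57 and 9.71 at Post-2hr, and 7.84, 9.32 and 9.31 at Post-24hr, against 7.19, 7.54 and 7.98 in Control cells. The only overlap over all arrays was Post-24hr replicate 1, which was below Control replicate 3. Ccl7 differed by 1.41 ± 0.20 (log2, SE; adjusted p = 0.16). Its neighbour in function Ccl2 was at 9.60, 10.94 and 10.86 at End, 11.20, 11.73 and 11.88 at Post-2hr, and 8.67, 11.79 and 11.35 at Post-24hr, against 7.51, 10.21 and 10.14 in Control cells. The replicate 1 arrays at End and Post-24hr were below the replicate 2 and 3 Control arrays, and the difference of 1.60 ± 0.35 had an adjusted p of 0.46. Cxcl1, a neutrophil chemoattractant, differed by 1.14 ± 0.20 (0.34) and Lif, a cytokine of the interleukin-6 family, by 0.84 ± 0.15 (0.34).

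The windows upstream of Lif and Cxcl1 are shown beside that of Plaur as a second AP-1 window and as a window with NF-κB letters, both among genes with their highest mean at Post-2hr. Each is the 250 bases before the RefSeq start (GRCm38.p6, plus strand), Lif at chr11:4257318-4257567 with TGANTCA in capitals and Cxcl1 at chr5:90890995-90891244 with the NF-κB motif (GGG, 2 free bases and TTTCC) of either strand in capitals.
Lif: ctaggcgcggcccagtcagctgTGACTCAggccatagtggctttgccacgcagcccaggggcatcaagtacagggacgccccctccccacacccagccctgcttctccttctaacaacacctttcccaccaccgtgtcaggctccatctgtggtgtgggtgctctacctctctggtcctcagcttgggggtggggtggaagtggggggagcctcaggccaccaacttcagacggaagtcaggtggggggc
Cxcl1: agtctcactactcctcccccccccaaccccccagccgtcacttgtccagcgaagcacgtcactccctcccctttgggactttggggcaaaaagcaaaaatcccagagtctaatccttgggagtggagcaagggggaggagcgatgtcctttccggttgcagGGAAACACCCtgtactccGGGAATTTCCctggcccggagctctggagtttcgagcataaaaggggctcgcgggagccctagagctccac
The AP-1 letters lie 228 bases before the Lif start, and the NF-κB letters 89 and 71 bases before the Cxcl1 start. RefSeq windows were found for 19 of the 33 genes listed next, 25 windows in all because some genes have several starts. The AP-1 letters were in 3 of the 25 (12%, against 6.75% of all 32851 windows), the NF-κB letters in 2 (8%, against 1.41%) and TGACG in 10 (40%, against 17.8%). The CArG box bound by SRF (CC, 6 bases that are A or T, and GG) was in 5 (20%, against 1.47%), 4 of them windows of Egr2 and 1 of Zfp36. The KLF letters CCNCNCCC in 18 (72%, against 45.9%) and the FOXO letters TGTTTAC in 1 (4%, against 3.17%), all on both strands. Windows of 1 gene share sequence.

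Widening the view to size rather than p was limited to rows with 1 symbol, with predicted gene models left out. Of these, 40 genes had an average difference of at least 0.5 on the log2 scale and arrays that did not overlap within either set, 37 higher and 3 lower. This choice was made after the values were seen, and it gets no test. Without the limit on size, 166 of all 14860 genes did not overlap on the higher side (1.12%) and 59 on the lower (0.397%). Over all 23332 rows, those without a symbol included, the split was milder, 215 higher (0.921%) and 143 lower (0.613%). How many of all rows met both limits was not worked out. Leaving aside 4 olfactory or vomeronasal receptors among the 37 on the higher side left 33 genes. On the lower side 1 of the 3 was such a receptor, Olfr733. In 23 of the 33 the lowest of the 12 arrays was Control replicate 1, and in 6 (Plaur, Klf5, Zfp36, Fosl1, Ier3 and Junb) all 9 sheared arrays were above all 3 Control arrays. Over all rows 57 had that full separation upwards (0.244%) and 37 downwards (0.159%). The difference was larger within replicate 1 for 19 of the 33 and larger within replicates 2 and 3 for 14.

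**Figure D2:**
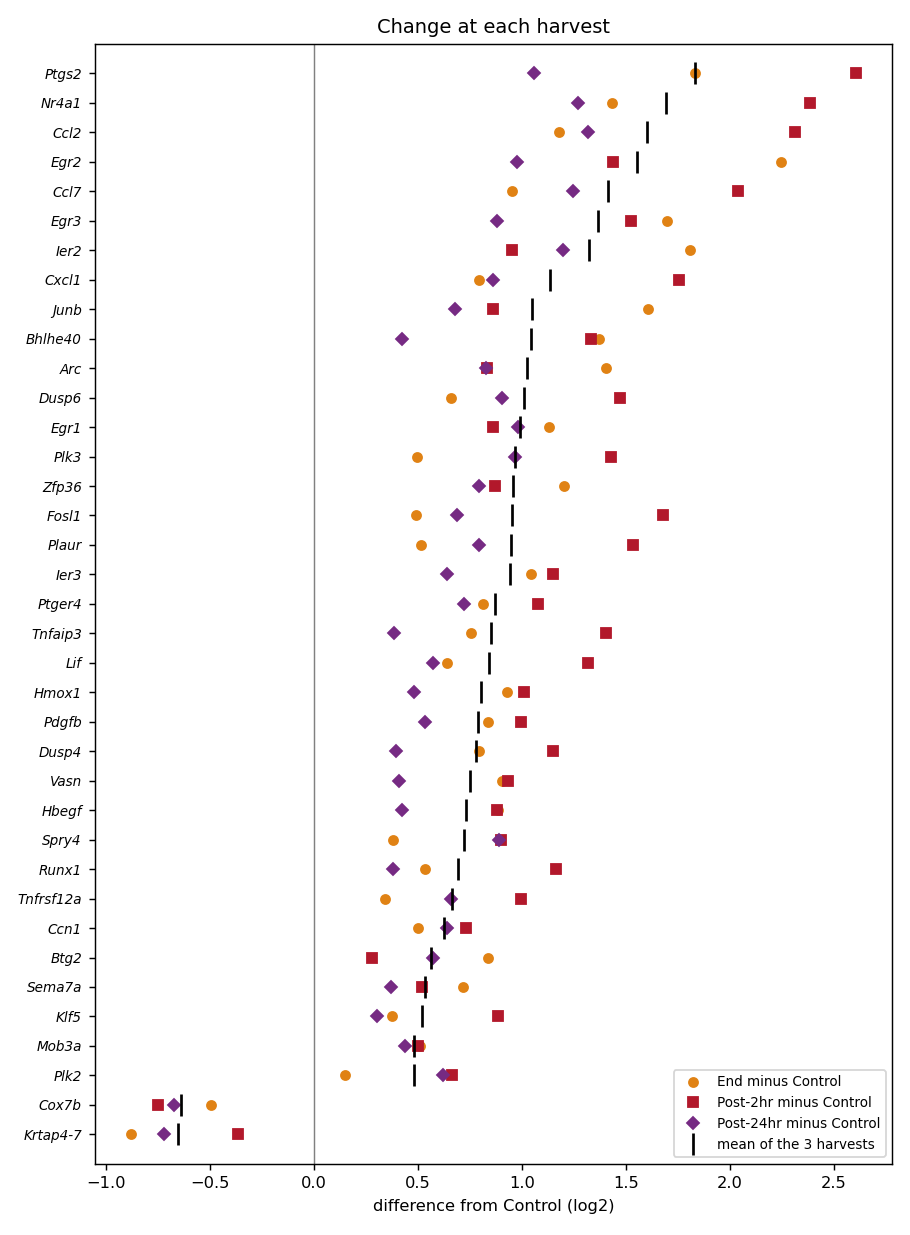
Difference from Control (x axis, log2) at End (circles), Post-2hr (squares) and Post-24hr (diamonds), and the mean of the 3 harvests (vertical strokes), for 37 genes whose sheared and Control arrays do not overlap within either set: the 33 genes with Mob3a and Plk2 on the higher side, and Cox7b and Krtap4-7 on the lower. Symbols for the largest averages (Ptgs2, Nr4a1, Ccl2) stand at the top, and for most genes the diamond lies left of the square.

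Among the 33 genes the mean was highest at End in 11, at Post-2hr in 22 and at Post-24hr in 0. The median difference was 0.84 at End, 1.15 at Post-2hr and 0.69 at Post-24hr, and the Post-24hr difference was below that at Post-2hr in 30 and below that at End in 23. Genes with their highest mean at End included Junb, Ier2, Btg2, Egr2, Arc, Bhlhe40 and Zfp36. Those highest at Post-2hr included Plaur, Fosl1, Klf5, Dusp6, Lif and the chemokines. For single genes the F test among harvests passed for Plaur only, with adjusted p-values of 0.0536 for Fosl1 and 0.0602 for Klf5. That test does not say which harvest is highest. For Plaur, Post-2hr minus End passed (limma, adjusted p = 0.0179) and Post-24hr minus Post-2hr did not (0.0913). The peak times are therefore descriptions of means for all 33 genes.

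Each harvest was also set against Control separately, with the same 3 Control arrays in every comparison. End called 0 rows (0%; 1675 at an unadjusted p under 0.05, lowest adjusted p = 0.129), Post-2hr called 36 (0.154%), 24 higher and 12 lower, and Post-24hr called 0 (0%; 1197 unadjusted, lowest adjusted p = 0.368). At Post-2hr 10 of the 33 genes passed: Plaur (adjusted p = 0.0015), Klf5 and Fosl1 (0.011 each), Runx1 (0.028), Ccl7 (0.031), Dusp6 (0.033), Ier3 (0.034), and Lif, Nr4a1 and Cxcl1 (0.042 each). These 10 rose at Post-2hr by 0.88 for Klf5 to 2.38 for Nr4a1. The 33 genes were chosen partly by these same Post-2hr and Control arrays, so the calls are no separate support for that choice. With 1 of the 12 arrays left out, 1 to 8 of the 10 still passed: Plaur in all 12 fits, Fosl1 in 8, Klf5 in 6, Runx1 in 5, Dusp6 in 3, and the others in 1 or 2. Plaur alone of the 10 was left without Control replicate 2, Control replicate 3, Post-2hr replicate 1 or Post-2hr replicate 2, and with replicates 2 and 3 only none passed. Cox7b fell by 0.75 there (0.031), and Acvr1b, a type I receptor for activin, fell by 0.56 (0.033), and neither passed without Control replicate 2, Control replicate 3 or Post-2hr replicate 1. Acvr1b differed by −0.13 at End and −0.09 at Post-24hr, so its average of −0.26 rests mainly on Post-2hr.

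Ptgs2 had the largest average of the 33 genes. It encodes cyclooxygenase-2, the inducible enzyme of prostaglandin synthesis. Its levels were 10.48, 11.00 and 9.55 at End, 11.80, 10.69 and 10.87 at Post-2hr, and 10.51, 9.37 and 8.83 at Post-24hr, against 9.88, 8.13 and 7.52 in Control cells. Within each set every sheared array was above Control, while Control replicate 1 exceeded 3 sheared arrays of replicates 2 and 3. The difference was 1.83 ± 0.36 (log2, SE; adjusted p = 0.42), or 3.56-fold, with 1.05 within replicate 1 and 2.22 within replicates 2 and 3. Ptger4, the EP4 receptor for prostaglandin E2, was at 9.04, 10.04 and 9.66 at End, 9.63, 9.83 and 10.07 at Post-2hr, and 8.76, 9.85 and 9.85 at Post-24hr, against 7.90, 9.22 and 9.18 in Control cells. It differed by 0.87 ± 0.16 (adjusted p = 0.34), with no overlap within either set.

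Ptger2, the EP2 receptor, was dim, at 5.31, 5.31 and 5.25 at End, 5.29, 5.91 and 5.44 at Post-2hr, and 5.47, 5.42 and 5.58 at Post-24hr, against 4.93, 5.29 and 5.47 in Control cells. The groups overlapped, and the difference was 0.22 ± 0.12 (log2, SE; adjusted p = 0.91), or 0.11 without Control replicate 1. Ptges, the inducible prostaglandin E synthase, averaged 6.31 ± 0.08 in sheared cells and 6.46 ± 0.13 in Control cells (SD, n = 9 and 3). It differed by −0.15 (adjusted p = 0.89), or −0.09 without Control replicate 1, with overlapping arrays. Of 12 genes measured for prostaglandin synthesis and E2 receptors, 5 were higher and 1 lower at all 3 harvests (41.7% and 8.33%, against 21.3% and 15.5% of all genes). Their median was 0.05, and none passed.

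Growth factors and surface proteins among the 33 included Hbegf, a ligand of the EGF receptor, at 0.73 ± 0.15 (log2, SE), Pdgfb, a platelet-derived growth factor chain, at 0.79 ± 0.21, and Tnfrsf12a, the receptor of TWEAK, at 0.67 ± 0.14. For Hbegf the difference was 1.16 within replicate 1 and 0.52 within replicates 2 and 3. Ccn1, a matricellular protein and a target of the mechanosensitive coactivator YAP, was at 12.24, 13.24 and 13.02 at End, 12.73, 13.21 and 13.25 at Post-2hr, and 12.80, 13.04 and 13.07 at Post-24hr, against 11.34, 12.81 and 12.83 in Control cells. Much of its average of 0.62 ± 0.18 came from 1 low array, Control replicate 1: without that array the difference was 0.31. Hmox1, heme oxygenase 1, had the opposite order between the sets, with 0.33 within replicate 1 and 1.04 within replicates 2 and 3.

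**Figure D3:**
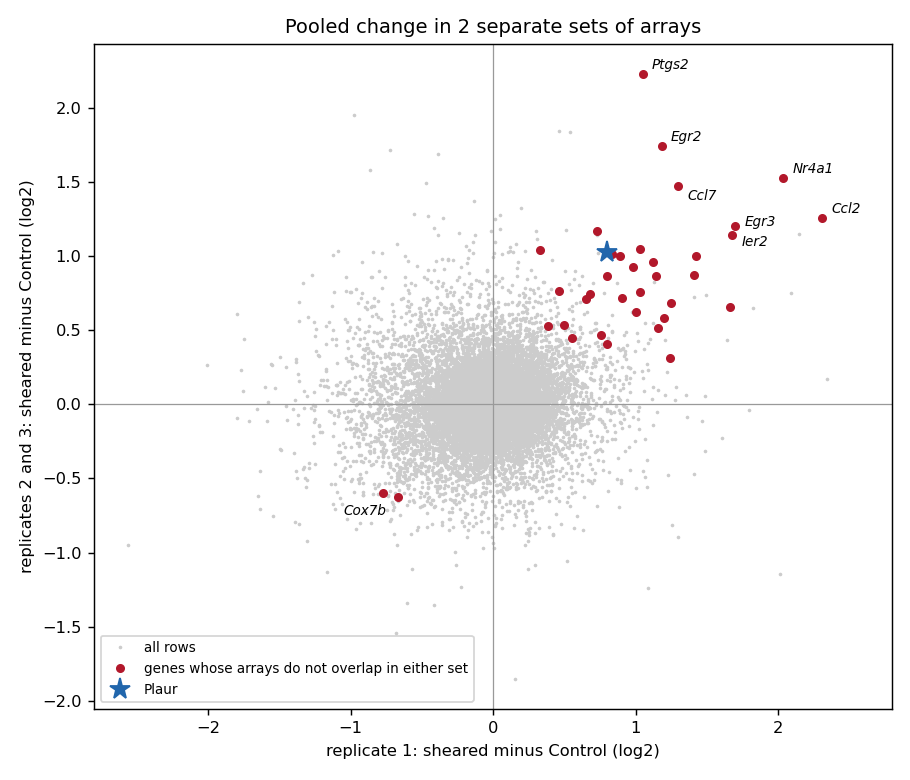
Difference between sheared and Control arrays (log2) within replicate 1 (x axis, 3 sheared against 1 Control array) and within replicates 2 and 3 (y axis, 6 sheared against 2 Control arrays), for all 23332 rows (grey) and for the 37 genes of the plot by harvest (red; Plaur as a blue star). The red genes lie in the upper right or lower left by construction, since their arrays do not overlap within either set.

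The sets share no array, and over all rows the differences within them were nearly unrelated, with Pearson's r of 0.0799 and Spearman's rho of 0.0798 (n = 23332 rows, a description across rows that share arrays). Among the 100 rows with the most positive differences within replicate 1, 67 were higher within replicates 2 and 3, with a median there of 0.20. Among the 100 most positive within replicates 2 and 3, 49 were higher within replicate 1, with a median of −0.0084. Of the 100 most negative within replicate 1, 51 were lower within replicates 2 and 3, with a median of −0.0088. Of the 100 most negative within replicates 2 and 3, 59 were lower within replicate 1, with a median of −0.087.

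A second description by size asked for a difference of at least 0.5 at each of the 3 harvests. Over all rows 60 were higher (0.257%) and 48 lower (0.206%) by this rule. Among the 14996 rows with 1 symbol the split was 27 higher (0.180%) and 2 lower (0.0133%). The 2 lower ones, Olfr691 and Olfr1352, are olfactory receptors with mean log2 levels of 4.03 and 2.85. Of the 27 higher ones, 4 are olfactory receptors and 23 are other genes, among them Nr4a1, Ccl2 and Ptgs2, whose smallest harvest differences were 1.27, 1.18 and 1.06. Most of the 23 were among the 33 genes above; Fos, Nppb, Hspa1a and Nol12 were not.

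Nppb, which encodes the B-type natriuretic peptide, was at 7.64, 8.35 and 8.25 at End, 7.37, 8.91 and 8.64 at Post-2hr, and 7.83, 9.04 and 9.06 at Post-24hr, against 5.79, 7.83 and 8.29 in Control cells. Its difference was 0.77 at End, 1.00 at Post-2hr and 1.34 at Post-24hr (average 1.04 ± 0.23, log2, SE; adjusted p = 0.46), and End replicate 3 was below Control replicate 3. Hspa1a, an inducible heat shock protein whose near-identical copy makes its probes uncertain, was at 7.38, 7.09 and 6.97 at End, 10.13, 6.26 and 6.70 at Post-2hr, and 9.69, 6.43 and 6.89 at Post-24hr, against 6.73, 6.52 and 6.58 in Control cells. Only the replicate 1 arrays of the recovery harvests were far above Control, and replicates 2 and 3 of those harvests were near it. The End arrays were above all 3 Control arrays, with a difference of 0.54.

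On the lower side, Cox7b, which encodes a small subunit of cytochrome c oxidase, came closest to the threshold. Its levels were 5.95, 6.21 and 6.25 at End, 5.51, 6.01 and 6.13 at Post-2hr, and 5.54, 6.19 and 6.13 at Post-24hr, against 6.33, 6.69 and 6.87 in Control cells. All 9 sheared arrays were below all 3 Control arrays, by a small step between End replicate 3 and Control replicate 1. The difference was −0.64 ± 0.07 (log2, SE; adjusted p = 0.108), −0.67 within replicate 1 and −0.62 within replicates 2 and 3. Other subunits of oxidative phosphorylation did not share its size. Of 15 measured, 0 were higher and 6 lower at all 3 harvests (0% and 40%, against 21.3% and 15.5% of all genes). The median of the list was −0.04, and the next lowest, Ndufa1, differed by −0.19.

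The remaining genes lowest in p were small or dim. Krtap4-7, a hair keratin-associated protein, was at 4.31, 4.32 and 4.32 at End, 4.79, 4.82 and 4.89 at Post-2hr, and 4.12, 4.38 and 4.93 at Post-24hr, against 5.18, 5.22 and 5.20 in Control cells. The arrays were fully apart at a level where no detection call was available. Ddx60, a helicase of antiviral sensing induced by interferon, differed by −0.49 ± 0.11 (log2, SE; adjusted p = 0.48) and Cdkl1, a cyclin-dependent kinase-like gene, by −0.36 ± 0.09 (0.57). In Ddx60 the arrays did not overlap within replicate 1, at 5.19 to 5.98 in sheared cells and 6.47 in Control cells, nor within replicates 2 and 3, at 6.07 to 6.69 in sheared cells and 6.83 to 6.84 in Control cells.

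Of 15 interferon response genes measured, 1 was higher and 7 were lower at all 3 harvests (6.67% and 46.7%, against 21.3% and 15.5% of all genes), with a median difference of −0.14 and none past the threshold. Stat2 and Irf9, partners in the factor that interferon activates, differed by −0.37 and −0.29. Cxcl10, an interferon-induced chemokine, went the other way, with 1.04 at End, 1.60 at Post-2hr and 0.13 at Post-24hr.

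**Figure D4:**
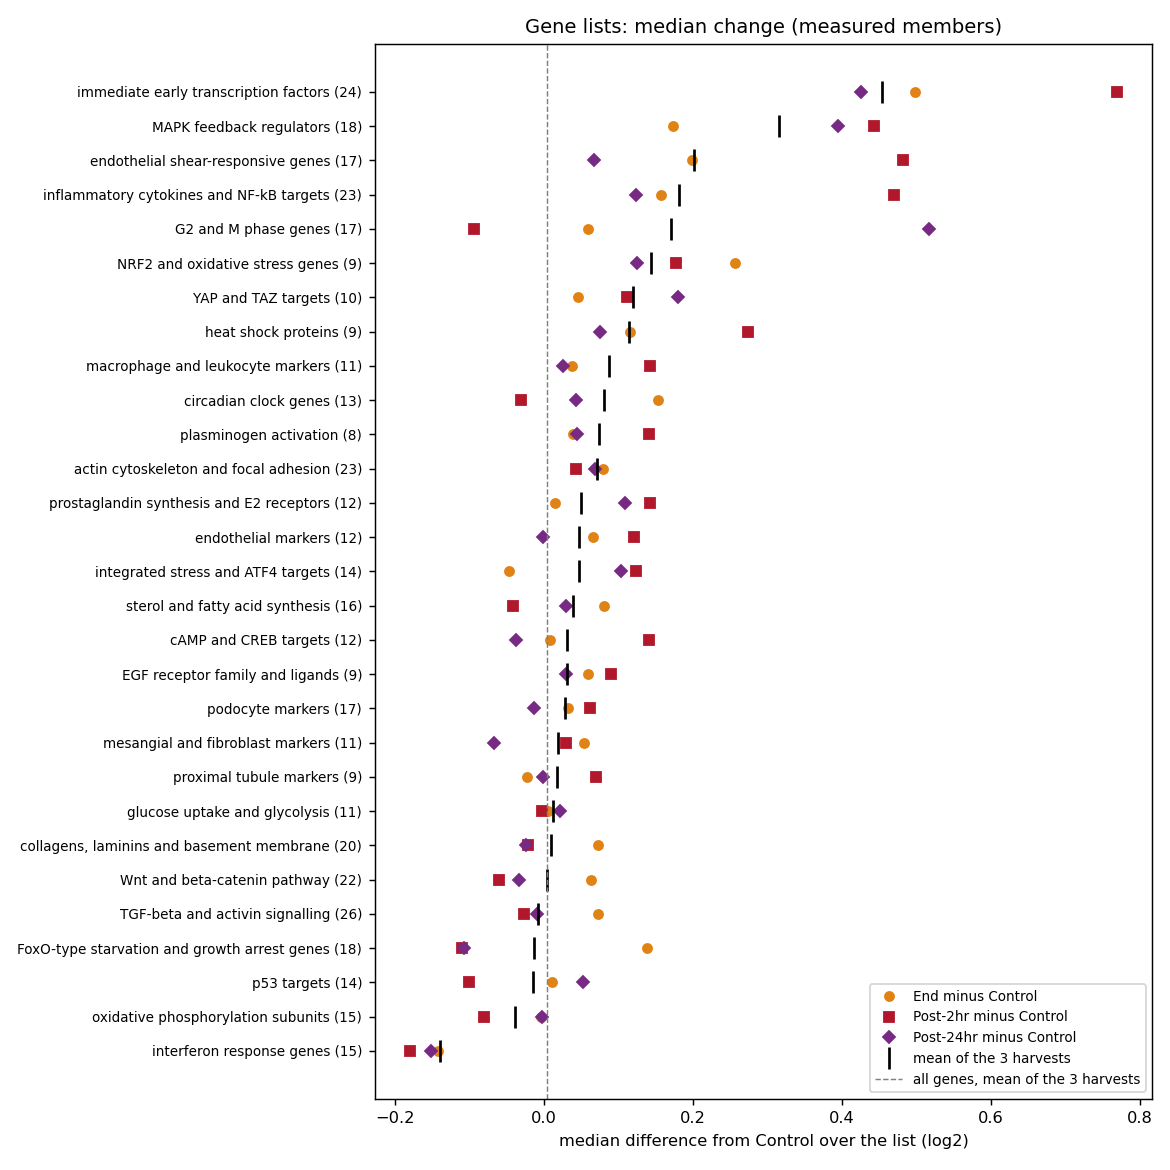
Median difference from Control (x axis, log2) over the measured members of 29 gene lists (y axis, number measured in brackets) at End (circles), Post-2hr (squares) and Post-24hr (diamonds), with the median of the average over harvests (vertical strokes) and that of all genes (dashed line). Immediate early factors have the highest median average, 0.45, and interferon response genes the lowest, −0.14.

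Of the other lists, 23 inflammatory cytokine and NF-κB target genes had 12 higher and 1 lower at all 3 harvests (52.2% and 4.35%, against 21.3% and 15.5% of all genes), 6 without overlap on the higher side (26.1%, against 1.12%) and a median of 0.18, which was 0.47 at Post-2hr. Tnfaip3, an inhibitor of NF-κB, differed by 0.85 ± 0.24 (log2, SE; adjusted p = 0.68), whereas Tnf and Icam1 differed by −0.04 and −0.01. Macrophage and leukocyte markers were checked beside this list: 11 of 12 were measured, their summed linear level ran from 872 to 1600 in sheared arrays and from 864 to 1443 in Control arrays, and 5 of the 11 lay under the lower quartile of all rows. In sheared cells 10 of the 11 had a higher mean, against 7699 of all 14860 genes. At all 3 harvests 3 of the 11 were higher and 0 lower (27.3% and 0%), and the median difference was 0.09, with 0.14 at Post-2hr. The part of such cells in the cytokine differences was not tested. Among the 11 markers, Ptprc and Adgre1 were dim, with mean log2 levels of 4.0 and 4.3. They differed by 0.01 and 0.00, below the list's median of 0.09, so they do not stand for the list. Endothelial shear-responsive genes had 10 of 17 higher and 1 lower at all 3 harvests (58.8% and 5.88%) with a median of 0.20, and their leading members were Ptgs2, Ccl2, Hmox1 and Pdgfb from above. Nos3, the endothelial nitric oxide synthase, differed by 0.07.

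NRF2 and oxidative stress genes had 7 of 9 higher and 0 lower at all 3 harvests (77.8% and 0%, against 21.3% and 15.5% of all genes). Their median was 0.14, led by Hmox1 at 0.81, Nqo1, a quinone reductase, at 0.69 and Slc7a11, a cystine transporter, at 0.59. Of 10 YAP and TAZ targets, 5 were higher and 1 was lower (50% and 10%), led by Ccn1 at 0.62, Ccn2 at 0.55 and F3, tissue factor, at 0.43. The median of these 10 was 0.12, with 0.22 within replicate 1 and 0.06 within replicates 2 and 3. Genes of the G2 and M phases had unlike harvests: all 17 had a higher mean, against 7699 of all 14860 genes, but only 2 were higher at all 3 harvests (11.8%). The median was 0.06 at End, −0.09 at Post-2hr and 0.52 at Post-24hr. That list's median was −0.13 within replicate 1 and 0.34 within replicates 2 and 3. FoxO-type starvation genes had 0 of 18 higher and 3 lower at all 3 harvests (0% and 16.7%), with medians of 0.14 at End, −0.11 at Post-2hr and −0.11 at Post-24hr.

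Genes known to define the podocyte had small differences. Of 17 podocyte markers measured, 4 were higher and 1 lower at all 3 harvests (23.5% and 5.88%, against 21.3% and 15.5% of all genes), 0 separated within both sets, and the median difference was 0.03. Nphs1 differed by 0.02 ± 0.06, Wt1 by 0.01 ± 0.07 and Podxl, the sialoprotein of the podocyte surface, by 0.01 ± 0.10 (log2, SE; adjusted p = 0.99, 1.00 and 1.00). Podxl was at 9.39, 10.20 and 10.38 at End, 9.06, 10.09 and 10.46 at Post-2hr, and 8.89, 10.21 and 10.32 at Post-24hr, against 9.02, 10.24 and 10.36 in Control cells. Every group had its low value in replicate 1, and the groups overlapped within both sets. A p that misses the threshold does not show that these levels were equal.

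In the Wnt pathway, which uses β-catenin to carry its signal, Ctnnb1, the gene of β-catenin, averaged 12.58 ± 0.12 in sheared cells and 12.56 ± 0.03 in Control cells (SD, n = 9 and 3). Axin2, a feedback target of the pathway, differed by 0.11 at End, 0.11 at Post-2hr and −0.14 at Post-24hr, for an average of 0.03 ± 0.05 (log2, SE; adjusted p = 0.98). Of 22 Wnt and β-catenin pathway genes measured, 3 were higher and 4 lower at all 3 harvests (13.6% and 18.2%, against 21.3% and 15.5% of all genes). The median was 0.0045.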

How the data were processed

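The deposited table holds 1 log2 expression value per row and array, per the file headers and the values. The authors hybridised total RNA to 12 Affymetrix Mouse Exon 1.0 ST arrays and summarised probes on several exons to the gene level, per the labels' protocols. Per the submitters' processing notes, RMA and Partek were used; the sources used here give no versions, order, settings or genome build. RMA pulls arrays towards 1 distribution, so a change in total RNA per cell would not be seen, and no detection calls were used. Rows were named through a platform table (14996 with 1 symbol, 1019 with several, 7317 unnamed here), and 14941 matched a RefSeq gene table (GRCm38.p6). For gene lists the brightest row per gene was kept (14860 genes).

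All 12 arrays entered 1 linear model per row (limma 3.58.1, R 4.3.3) with a mean per group and a fixed term for replicate 1 against replicates 2 and 3, with 7 residual and 2.17 prior degrees of freedom. The comparison was the mean of End, Post-2hr and Post-24hr minus Control, with Benjamini-Hochberg adjustment over all 23332 rows and a threshold of 0.05. Differences are on the log2 scale with the model's standard error (SE). No value was missing and no array was left out. The method was tested on simulated data.

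Named were rows past the threshold with 1 direction at the 3 harvests, filled to 5 per direction by smallest p, the 3 rows on each side of the threshold, and a fixed group of genes for prostaglandin E2 signalling (Ptgs2, Ptges, Ptger2, Ptger4), the podocyte (Podxl, Wt1, Nphs1, Synpo) and the Wnt pathway (Ctnnb1, Axin2). Synpo had no row with 1 symbol. The genes that passed with fewer rows tested and those chosen by size were added after their values were seen. The members and the gene lists were chosen with earlier results of these data known. Lists are described by counts and medians, without a test. Motifs were searched in the 250 bases before RefSeq starts. Alternatives covered the fixed term, the arrays and harvests included, normalization, filters on rows, variance models, array weights and the threshold.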

Additional observations from a re-analysis of the deposited data

Results flagged for a closer look

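Among 52 named genes, 3 had 1 sheared array far from the other 8, by Dixon's criterion, which chance meets in about 1 in 20 groups. These arrays come from 3 harvests, so the group of 9 is mixed. Egr3 was at 6.07 in Post-24hr replicate 1, with the next array at 7.27; its own Control array was lower still, at 5.43, and 2 other Control arrays were at 6.40 and 6.49. Ddx60 was at 5.19 in Post-2hr replicate 1, with the next at 5.93. Ptger2 was at 5.91 in Post-2hr replicate 2, with the next at 5.58.

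The differences from Control were unequal between harvests for Plaur (F test among the 3 sheared harvests in the fit of all 12 arrays, limma, adjusted p = 0.0339), which did not pass with the 9 sheared arrays alone (0.106). Axin2 was above Control at End, by 0.106, and below it at Post-24hr, by −0.14, on every array within its set; that opposition of directions was not itself tested, and the F test among the harvests gave an adjusted p of 0.155.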

How the results depend on the processing

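Plaur stayed higher in sheared cells under every alternative run, and its call was lost under some. Leaving out 1 array at a time gave a difference of 0.89 to 1.03 with adjusted p from 0.00503 to 0.133. It was also lost with replicates 2 and 3 only (1.03, adjusted p = 0.168), without Post-2hr in the average (0.66, 0.242), with harvests merged into 2 arms (adjusted p = 1.00) and with an ordinary linear model (0.134). A replicate block with 3 levels gave 0.0579. Same-numbered arrays correlated in their deviations from group means by 0.522 to 0.723 for number 1, 0.0294 to 0.342 for number 2 and 0.250 to 0.535 for number 3. The reported fit did not take the numbers to pair the samples. All these correlations were positive, and none between different numbers are given for comparison, so they do not exclude pairing.

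Rows called for all sheared minus Control, 1 as reported, numbered 0 under the replicate block, replicates 2 and 3 only, Post-2hr left out, 2 arms and the ordinary model, 13 above the 50th percentile of level, 13 among rows with 1 symbol and 6 with array weights. Single arrays left out gave 0 to 3. End, 0 as reported, gave 10 above the 50th percentile and 9 among rows with 1 symbol, and 0 to 4 with single arrays left out. Post-24hr gave 0 to 1 with single arrays left out. Post-2hr, 36 as reported, gave 4 without the fixed term, 16 with a random block, 0 with replicates 2 and 3 only, 75 and 235 above the 25th and 50th percentiles, 133 with 1 symbol, 61 with an intensity trend, 6 with the ordinary model, 68 with array weights and 118 at a threshold of 0.1, and 1 to 32 with single arrays left out. The F test among harvests, 20 as reported, gave 5 without the fixed term, 7 under the replicate block, 0 with replicates 2 and 3 only, 13 with median centring, 31 with quantile normalization, 94 and 479 above the percentiles, 239 with 1 symbol, 130 with a trend, 13 with a robust prior, 11 with the ordinary model, 54 with array weights, 133 at 0.1 and 0 with the 9 sheared arrays alone, a setting chosen after seeing the data, and 0 to 17 with single arrays left out. The test between the sets gave 0 wherever it could be fitted. By construction the percentile and 1-symbol settings test fewer rows and also estimate the prior variance from those rows alone. The cause of these shifts and of the others was not tested.

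Among the 52 named genes, signs turned only for 5 with differences near 0. With replicates 2 and 3 only, Wt1 was −0.0284, Podxl −0.0278, Axin2 −0.0251 and Ctnnb1 −0.0158. Without End, Podxl was −0.0372, Axin2 −0.0112 and Ctnnb1 −0.0134. Without Post-2hr, Nphs1 was −0.0366, Wt1 −0.0103, Axin2 −0.0156 and Ctnnb1 −0.000718. Single arrays left out gave −0.0350 to 0.0761 for Nphs1, −0.0284 to 0.0575 for Wt1, −0.0298 to 0.0627 for Podxl, −0.0251 to 0.0625 for Axin2 and −0.0158 to 0.0491 for Ctnnb1.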
